A study of Mus musculus with 6 samples.

Results

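The 10 genes described here encode the enzymes of de novo fatty acid synthesis, elongation and desaturation and their regulators, namely Acly, Me1, Acaca, Fasn, Elovl5, Elovl6, Scd1, Scd2, Srebf1 and Thrsp. They were chosen by name as a function of mammary epithelium, and each matched 1 Ensembl gene among the 41388 genes that were counted. RNA-seq was performed on tumor-initiating cells (TICs, sorted as CD24+CD90+CD45-, 3 samples) and on the tumor cells outside that gate, the non-CD24+CD90+ cells, which are called control tumor cells from here on (3 samples). Both groups were sorted by flow cytometry from primary mammary tumors of 12-week-old female mice of the strain FVB/N-TgN(MMTVPyVT)634Mul/J, in which the mouse mammary tumor virus promoter drives the polyoma middle T antigen in mammary epithelium. Every sample pooled 4 cell sorts, which the paper describes as a pool of tumors from 4 mice. For each library 120 ng of RNA was used. The short design note of the series calls the comparison group CD24-CD90- cells, whereas the methods of the study sorted all CD45- cells outside the double-positive gate, so that cells with 1 of the 2 markers may be present. Neither source names a sequencing batch or ties a TIC sample to a sample of the other group. The comparison asks how the expression of lipogenic genes in TICs relates to that in the remaining tumor cells.

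In de novo lipogenesis, citrate exported from mitochondria is split into acetyl-CoA, which is carboxylated to malonyl-CoA and condensed into palmitate with NADPH as the reductant. Elongases and desaturases then turn palmitate into longer and monounsaturated fatty acids, and the transcription factor SREBP-1 drives many of the genes. The secretory epithelium of the mammary gland uses this pathway for milk fat, and many carcinomas express it at high levels.

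Total counts ranged from 6781239 to 8450038 in control tumor cells and from 8114933 to 9100552 in TICs. Expression is given as CPM, the counts scaled to the depth of the sample, after TMM normalization, and differences as the log2 fold change of TICs over control tumor cells with its standard error (SE). A gene was called changed when exactTest of edgeR gave an adjusted p-value (Benjamini-Hochberg) below 0.1 over all 12192 expressed genes, which called 1.55% of them (1.36% higher and 0.189% lower in TICs). Neither sorting marker was called changed in RNA. Cd24a was at 402 to 602 CPM in control tumor cells and 315 to 440 CPM in TICs (adjusted p = 0.985), and Thy1, which encodes CD90, at 21.6 to 75.9 and 70.3 to 207 CPM (adjusted p = 0.350). The Thy1 range lay higher in TICs, and the groups met only between 70.3 and 75.9 CPM. In sorted pools of this kind, fewer cells of a type and less RNA per cell cannot be told apart. The 6 samples can be split in 20 ways, so that no exact permutation p-value of a single gene can fall below 0.1.

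None of the 10 lipogenesis genes was called changed in TICs. All 10 passed the expression filter, and 8 had a negative and 2 a positive log2 fold change. The count of calls was 0 with exactTest, with the quasi-likelihood test of edgeR and with DESeq2, and each tool gave an unadjusted p-value below 0.05 for 1 member, Fasn. Over all genes tested, 957 had such an unadjusted p-value in exactTest. The median log2 fold change was -0.28 over the members and -0.01 over all genes, of which 50.3% had a negative value. Among the 4775 genes at or above the mean CPM of the lowest member, 56.8% were negative and the median was -0.08.

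**Figure D1:**
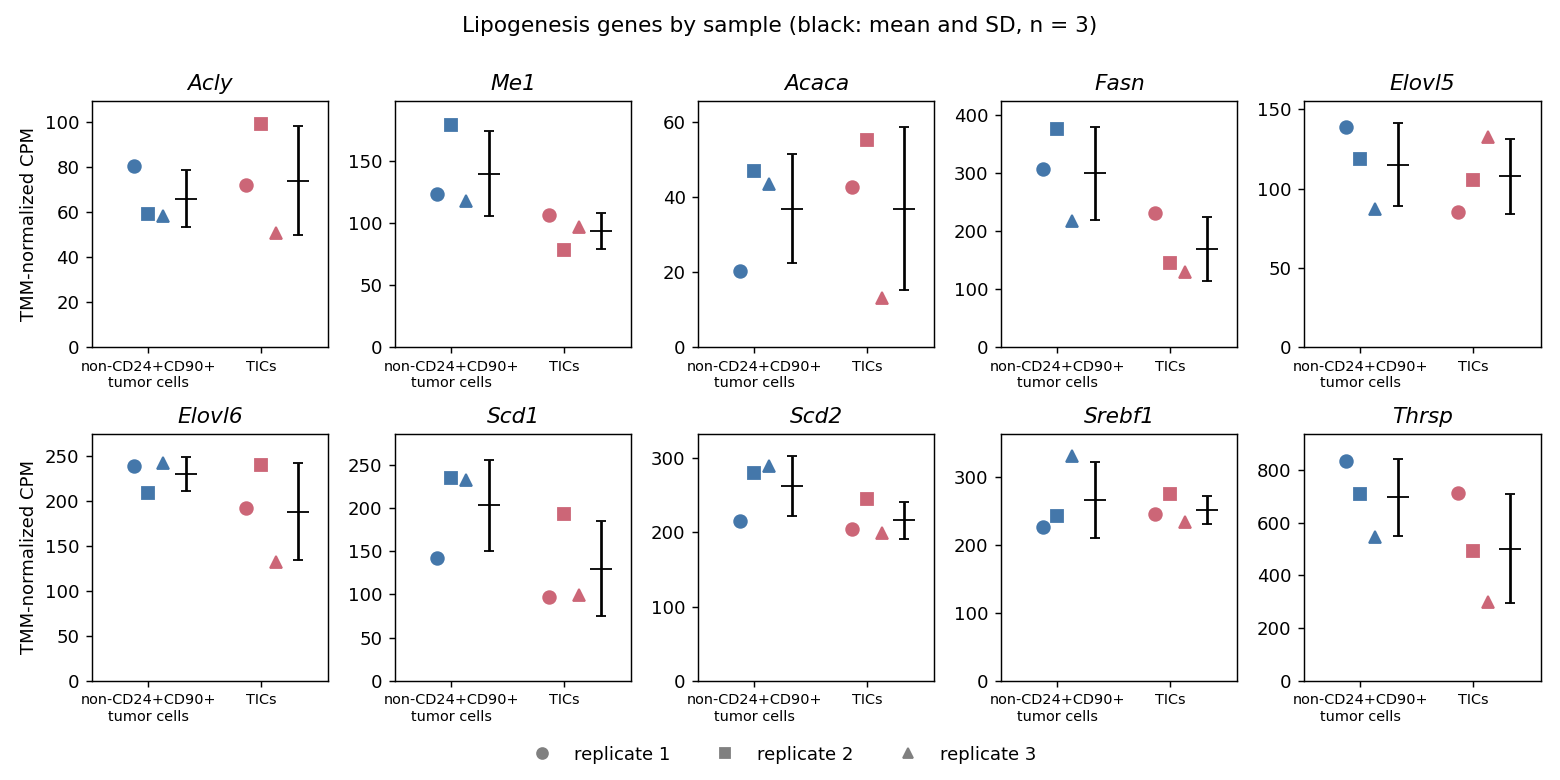
TMM-normalized CPM (vertical axes, linear, from 0) of each lipogenesis gene in the 3 samples of control tumor cells (blue) and the 3 TIC samples (red), with the mean and SD in black. The groups overlap for every gene but Me1, where the TIC samples reach 106 CPM at most and the other samples start at 117 CPM.

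The largest difference was found for Fasn (ENSMUSG00000025153), the multifunctional enzyme that builds palmitate. The gene lies on the minus strand of chr11:120805846-120824547 (GRCm38) and overlaps no other annotated gene. Fasn was at 306, 376 and 216 CPM in control tumor cells replicates 1 to 3 and at 231, 145 and 130 CPM in TIC replicates 1 to 3. The groups overlapped through a single pair of samples, because TIC replicate 1 lay above replicate 3 of the other group. Means were 299.6 ± 80.1 and 168.8 ± 54.7 CPM (SD, n = 3), a log2 fold change of -0.83 (SE 0.34), or 0.564 times the control level with a 95% interval from 0.357 to 0.889. This interval holds for Fasn taken alone. After adjustment over all genes, exactTest gave p = 0.357 and the quasi-likelihood test p = 0.417, and the exact two-sided permutation test gave p = 0.2. Without TIC replicate 1 the log2 fold change was -1.11 and the adjusted p of exactTest 0.0813, so that Fasn passed the threshold in that setting alone.

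Me1 (ENSMUSG00000032418; chr9:86581371-86695953, minus strand) encodes cytosolic malic enzyme, which supplies NADPH. It was at 122.9, 178.5 and 117.1 CPM in control tumor cells and at 106.5, 78.0 and 96.5 CPM in TICs. Every TIC sample was below every other sample, the only member for which the groups were apart. Over all genes tested, 7.55% had every TIC sample below and 7.69% every TIC sample above, so that 1 of 10 members is near the background. The log2 fold change was -0.58 (SE 0.33; 95% interval -1.22 to 0.07), the adjusted p of exactTest 0.784, and the exact permutation p = 0.1, the smallest this design allows. Of the 50-base stretches in Me1 exons, 28.3% also occur in another gene, chiefly Gm7049. Reads without a unique position had been removed, so that the level of Me1 may be understated in every sample.

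The promoters of these genes are shown because Fasn had the largest difference and Me1 the only groups that were apart. The sequences are the 250 bases before the RefSeq start (GRCm38.p6), on the strand of the gene, for Fasn at chr11:120824548-120824797 and for Me1 at chr9:86695915-86696164. Capitals mark matches on either strand to the box named by its letters CCAAT, or to the GC box, whose letters are GGGCGG.
Fasn: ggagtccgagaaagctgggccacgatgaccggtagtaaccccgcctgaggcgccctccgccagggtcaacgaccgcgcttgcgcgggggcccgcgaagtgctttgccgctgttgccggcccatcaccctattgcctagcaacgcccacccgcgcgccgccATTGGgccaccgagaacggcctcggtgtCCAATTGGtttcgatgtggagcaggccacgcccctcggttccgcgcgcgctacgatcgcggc
Me1: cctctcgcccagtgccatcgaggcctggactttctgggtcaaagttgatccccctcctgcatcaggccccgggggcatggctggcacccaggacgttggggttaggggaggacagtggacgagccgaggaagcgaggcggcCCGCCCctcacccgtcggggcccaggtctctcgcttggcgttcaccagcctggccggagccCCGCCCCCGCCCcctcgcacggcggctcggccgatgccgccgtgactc
The Fasn window held 3 CCAAT boxes, 2 of which overlap each other on opposite strands, and no GC box. The Me1 window held 3 GC boxes and no CCAAT box. Windows were found for 8 of the 10 members, all but Scd1 and Scd2. That of Acaca precedes a RefSeq start 65766 bases from its GENCODE start, inside the gene, and the other 7 lie within 180 bases of theirs. CCAAT occurred in 4 of these 8 (Fasn, Elovl5, Srebf1 and Thrsp) and in 33.8% of all 32851 windows, and GGGCGG in 2 (Acly and Me1) and 32.7%. The E-box CACGTG occurred in the window of Elovl5 alone and in 6.02% of all windows. The sterol regulatory element TCACNCCAC occurred in none of these 8 windows and in 1.05% of all windows. Only 1 window per member was searched, although Srebf1 had 3 and Me1 had 2, whereas the shares over all windows count every start. Absence from a searched window therefore does not mean that the gene lacks the element. These are matches of letters in short windows, and binding was not measured.

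The other enzymes that lead to palmitate differed little between the group means. Acly (ENSMUSG00000020917; chr11:100476353-100528000, minus strand), which splits citrate into acetyl-CoA, was at 80.6, 59.1 and 58.5 CPM in control tumor cells and at 72.3, 99.1 and 50.7 CPM in TICs. TIC samples were both the highest and the lowest of the 6. The log2 fold change of Acly was 0.16 (SE 0.40; 95% interval -0.63 to 0.96; adjusted p = 1 in exactTest), and without TIC replicate 2 it was -0.10. Acaca (ENSMUSG00000020532; chr11:84129672-84401651, plus strand), which makes malonyl-CoA, was at 20.3, 47.1 and 43.5 CPM in control tumor cells and at 42.6, 55.3 and 13.1 CPM in TICs. It was the most variable member, with a highest TIC sample 4.23 times the lowest, and the lowest sample rested on 99 counts. Its means were 37.0 ± 14.5 and 37.0 ± 21.7 CPM (SD, n = 3). The 95% interval of the log2 fold change, -1.20 to 1.21, leaves room for a change of over 2-fold in either direction. Of its 50-base exon stretches, 30.4% occur in other genes, chiefly Gm5182, and the protein-coding gene Gm11437 lies within it on the opposite strand. The strand setting of the counting is not given in the sources used here, so that reads of the pair could not be separated by strand.

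Among the desaturases, which place a double bond in stearate and palmitate, Scd1 had the larger difference. Scd1 (ENSMUSG00000037071; chr19:44394455-44407879, minus strand) was at 142, 234 and 232 CPM in control tumor cells and at 96.6, 193.5 and 99.4 CPM in TICs. TIC replicates 1 and 3 lay below all other samples, and TIC replicate 2 lay within the range of the other group. Its log2 fold change was -0.64 (SE 0.36; 95% interval -1.35 to 0.06; adjusted p = 0.751 in exactTest). Its neighbor Scd2 (ENSMUSG00000025203; chr19:44293674-44306864, plus strand) was at 216, 280 and 290 CPM and at 205, 245 and 199.5 CPM. The same pair of TIC samples was lowest, and the log2 fold change of Scd2 was -0.28 (SE 0.29; 95% interval -0.85 to 0.30; adjusted p = 1). Scd1 shares 4.56% of its 50-base exon stretches with other genes, chiefly Scd3, and Scd2 shares 3.97%, chiefly with Scd1.

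The elongases lengthen fatty acids by adding carbons from malonyl-CoA, Elovl6 acting on palmitate and Elovl5 on polyunsaturated fatty acids. Elovl6 (ENSMUSG00000041220; chr3:129532355-129638495, plus strand) was at 239, 209 and 242 CPM in control tumor cells, the smallest ratio of highest to lowest sample (1.16) of any member in that group, and at 193, 240 and 132 CPM in TICs. Its log2 fold change was -0.29 (SE 0.31; 95% interval -0.90 to 0.33; adjusted p = 1). Elovl5 (ENSMUSG00000032349; chr9:77917364-77984519, plus strand) was at 138.9, 118.8 and 87.1 CPM and at 85.3, 105.6 and 132.3 CPM. The TIC and other samples of Elovl5 covered nearly the same range, with a log2 fold change of -0.09 (SE 0.34; 95% interval -0.76 to 0.57; adjusted p = 1). TIC replicate 3, the lowest of all samples for Elovl6, was the second highest for Elovl5.

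Of the regulators, Thrsp had the wider spread among TICs. Thrsp (ENSMUSG00000035686; chr7:97412938-97417730, minus strand), also called Spot 14, encodes a small protein that promotes fatty acid synthesis in mammary gland and liver. It was at 834, 707 and 546 CPM in control tumor cells and at 711, 494 and 300.2 CPM in TICs. TIC replicates 2 and 3 lay below all other samples, while TIC replicate 1 exceeded all but 1 of them. The log2 fold change of Thrsp was -0.47 (SE 0.34; 95% interval -1.14 to 0.19; adjusted p = 0.923 in exactTest). Srebf1 (ENSMUSG00000020538; chr11:60199089-60222581, minus strand), the gene of SREBP-1, was at 226, 243 and 331 CPM and at 246, 274 and 234 CPM. It was the least variable member among TICs, where the highest sample was 1.17 times the lowest. The 95% interval of its log2 fold change, -0.66 to 0.49 around -0.08 (SE 0.29; adjusted p = 1), does not reach a 2-fold change in either direction. Srebf1 overlaps Rai1 on the opposite strand, with which it shares 1.33% of its 50-base exon stretches.

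**Figure D2:**
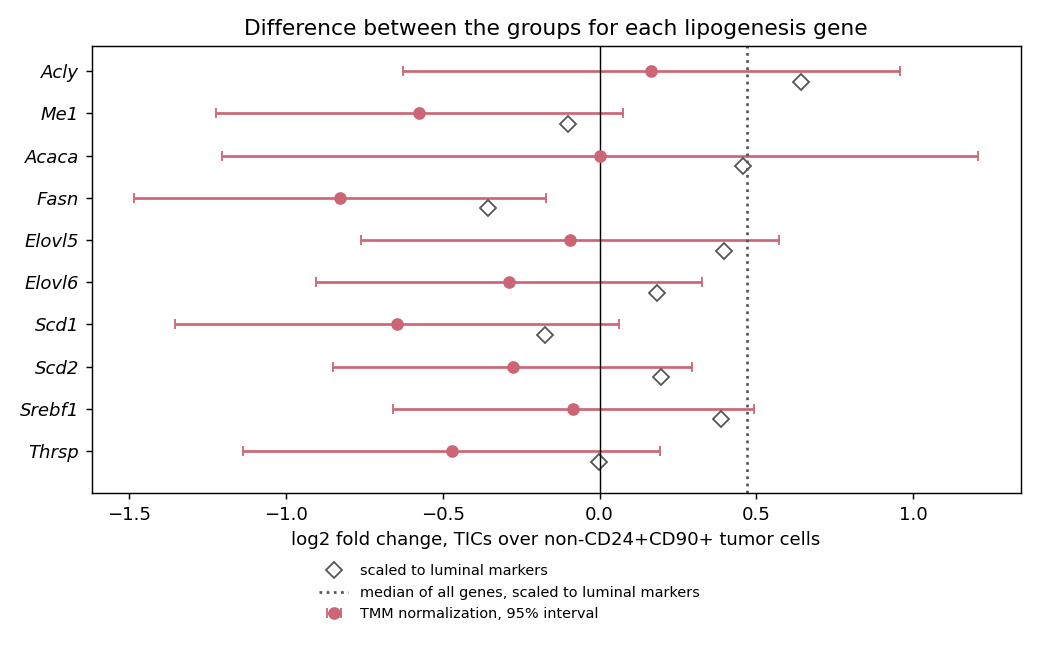
Log2 fold change of TICs over control tumor cells (horizontal axis) for each lipogenesis gene, with TMM normalization (red points, 95% intervals) and when scaled to luminal markers (open diamonds; the dotted line is the median of all genes on that scale, 0.47). With TMM normalization the interval of Fasn, -1.48 to -0.17, is the only one that leaves out 0, and after adjustment over all genes Fasn was not called.

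Samples within a group differed in the members as a set. TIC replicate 3 was the lowest of the 6 samples for 6 of 10 members, TIC replicate 1 for 2 (Elovl5 and Scd1), and TIC replicate 2 (Me1) and control tumor cells replicate 1 (Srebf1) for 1 each. The summed level of the 10 members was 2326, 2453 and 2164 CPM in control tumor cells and 1990, 1929 and 1388 CPM in TICs. Every TIC sample was thus below the other group in this sum, of which Thrsp is the largest part. Gene by gene this held for 1 of 10 members, Me1. It held for 510 of the 4775 genes at or above the mean CPM of the lowest member. How often TIC replicate 3 was the lowest sample over all genes was not counted. The median log2 fold change over the members was -0.19 without TIC replicate 3, -0.43 without TIC replicate 2 and -0.28 with all samples.

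Divided by exon length, the levels of the members spanned a wide range within each group of samples. In control tumor cells Thrsp had 318 CPM per kilobase of exon, and Scd2 with 48.0, Srebf1 with 47.3, Scd1 with 41.5, Me1 with 36.3, Elovl6 with 35.8, Elovl5 with 32.6 and Fasn with 27.4 followed. Each of the genes from Scd2 to Fasn overlapped the next one in this order over the 3 samples. Acly, with 12.5 CPM per kilobase, and Acaca, with 2.16, stood apart below them. In TICs the order again started with Thrsp (229 CPM per kilobase) and ended with Fasn (15.4), Acly (14.0) and Acaca (2.17). Fasn and Acly overlapped in TICs and did not in control tumor cells. Exon length here is the union of all annotated exons, which for Acaca comes to 17074 bases. Of the 50-base exon stretches, 30.4% for Acaca and 28.3% for Me1 also occur in other genes. Reads without a unique position had been removed, so that the levels of these 2 genes may be understated.

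**Figure D3:**
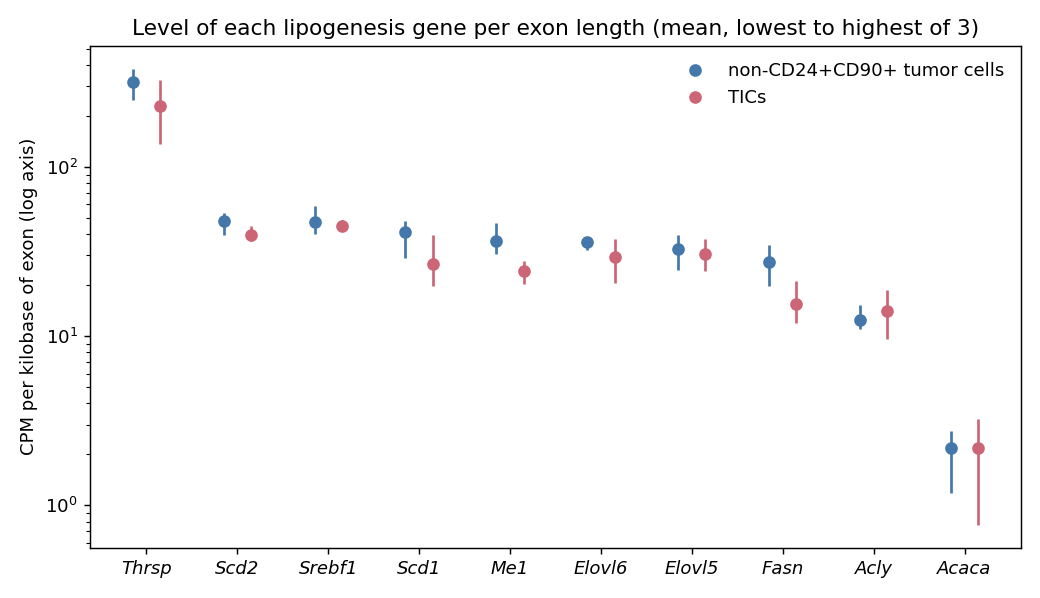
Mean CPM per kilobase of exon (vertical log axis) of each lipogenesis gene in control tumor cells (blue) and TICs (red), with lines from the lowest to the highest of 3 samples. Thrsp lies highest (318 and 229) and Acaca lowest (2.16 and 2.17), and the other genes lie between 12.5 and 48.0 in both groups.

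Other lipid genes were read from the same test by pathway. Of the genes that supply precursors and NADPH, 9 of 10 were tested, 7 with negative and 2 with positive values (median -0.22), and none was called, 2 having an unadjusted p-value below 0.05. Over the 6 lipid pathway lists the quasi-likelihood test called no gene and DESeq2 called Lpin1 alone. Within the list of precursor and NADPH supply, the smallest p-values of exactTest belonged to Mpc2 and Pgd. Mpc2, a subunit of the mitochondrial pyruvate carrier, had a log2 fold change of 0.66 (adjusted p = 0.592 in exactTest). Pgd, which makes NADPH in the pentose phosphate pathway, had one of -0.88 (adjusted p = 0.608 in exactTest). Pgd was at 436, 395 and 267 CPM in control tumor cells and at 339, 181 and 77.3 CPM in TICs, with TIC replicate 3 again the lowest. Mpc1, the partner of Mpc2 in the carrier, had no count in any sample. With 3 counts taken as the limit, this allows up to 0.330 to 0.442 CPM per sample (counting error only). Reads without a unique position had been removed, so that the limit covers only reads that could be counted. Whether reads of Mpc1 were lost was not tested, and its zero need not mean absent RNA.

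Among other genes of fatty acid elongation and desaturation, 16 of 20 were tested, with 10 negative and 6 positive values (median -0.13) and none called (1 at an unadjusted p-value below 0.05). Hacd1, a dehydratase of the elongation cycle, was at 28.3, 24.8 and 23.0 CPM in control tumor cells and at 61.0, 35.9 and 97.1 CPM in TICs. Every TIC sample was above the other group, which was also so for 7.69% of all genes tested. The log2 fold change of Hacd1 was 1.35 (SE 0.50; adjusted p = 0.293 in exactTest). Hacd4, of the same family, followed with 0.38 (adjusted p = 0.983). Of the factors that control lipogenic transcription, 17 of 18 were tested, with 7 negative and 10 positive values (median 0.09) and none called (0 at an unadjusted p-value below 0.05). Rxra, a partner of nuclear receptors, had a log2 fold change of -0.57 (adjusted p = 0.751), and Mlxipl, which encodes the glucose-responsive factor ChREBP, one of -1.90 (SE 1.16; adjusted p = 0.884). Mlxipl was at 17.1, 25.1 and 35.2 CPM in control tumor cells and at 0.99, 19.5 and 0.26 CPM in TICs, so that TIC replicate 2 stood near the other group and the remaining TICs far below it.

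The genes of triglyceride synthesis and milk fat secretion were the pathway with a called gene. Of 21 genes 17 were tested, with 13 negative and 4 positive values and a median of -0.47. In exactTest 1 of the 17 was called lower, against 0.189% of all genes tested, and 1 had an unadjusted p-value below 0.05. The called gene was Lpin1, a phosphatidate phosphatase that makes diacylglycerol and also acts in the nucleus as a coregulator. Lpin1 was at 76.0, 104.5 and 126.3 CPM in control tumor cells and at 32.1, 56.1 and 26.9 CPM in TICs. Every TIC sample was below the other group, which was also so for 7.55% of all genes tested. The log2 fold change was -1.41 (SE 0.42; adjusted p = 0.0818 in exactTest). The quasi-likelihood test gave an adjusted p of 0.229, and leaving out any sample but TIC replicate 2 ended the call, with adjusted p-values from 0.126 to 0.520. The summed level of the list was 3266 to 4108 CPM in control tumor cells and 2549 to 3206 CPM in TICs.

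Cholesterol synthesis, the branch driven mainly by SREBP-2, had 17 of 19 genes tested, 8 negative and 9 positive with a median of 0.02 and none called (0 at an unadjusted p-value below 0.05). Dhcr7, which completes cholesterol synthesis, had a log2 fold change of -1.14 (SE 0.77; adjusted p = 0.904), and Lss, which closes the sterol ring, one of -2.12 (SE 1.41; adjusted p = 0.925). Fatty acid oxidation, the opposing pathway, had 12 of 14 genes tested, 8 negative and 4 positive with a median of -0.21 and none called (likewise 0). Its smallest p-values belonged to Acadl (0.51, adjusted p = 0.856) and Hadhb (0.77, adjusted p = 0.889), both enzymes of mitochondrial beta-oxidation.

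**Figure D4:**
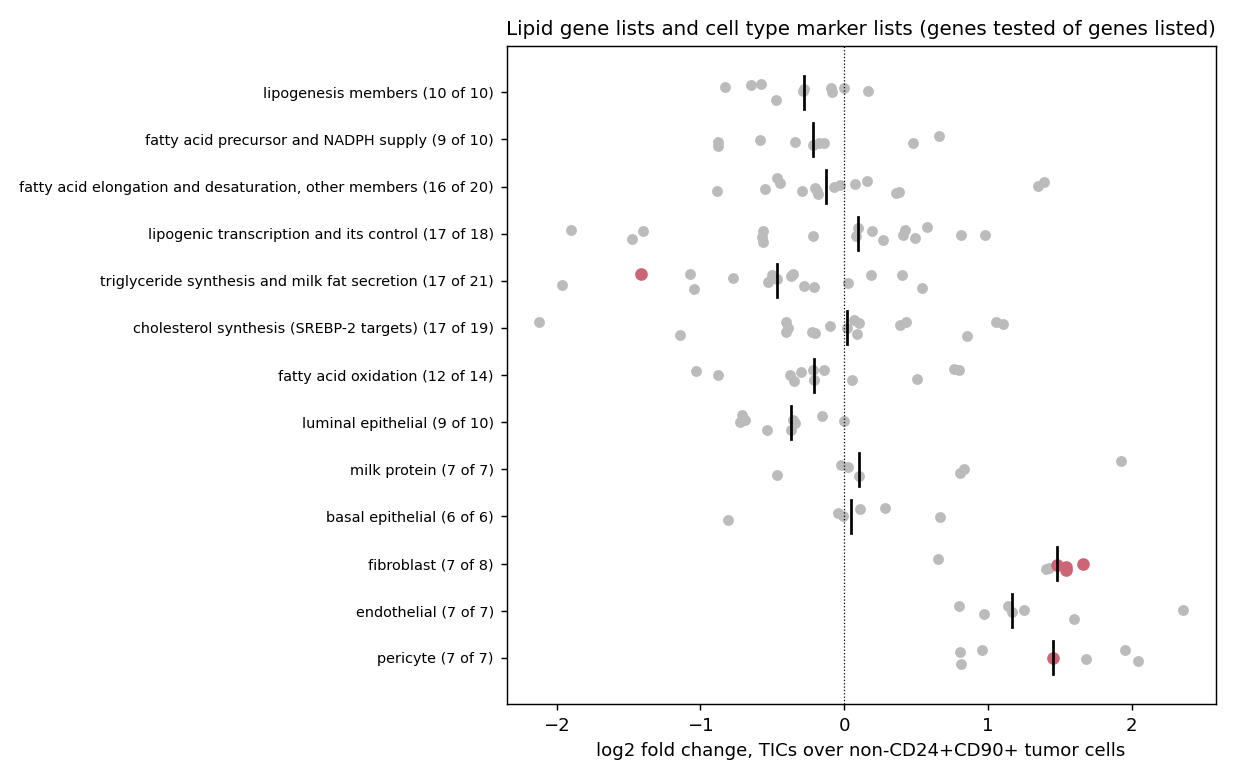
Log2 fold change of TICs over control tumor cells (horizontal axis) of every tested gene of the lipogenesis members, 6 lipid pathways and 6 cell type marker lists; grey points were not called, red points were called at an adjusted p-value below 0.1 and black bars are medians. The lipogenesis members lie between -0.83 and 0.16 with none called, and the fibroblast markers lie to the right of 0 with 4 called.

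Markers of several cell types differed between the groups, and their part in the values of the lipogenesis genes was not tested. The summed level of 10 luminal epithelial markers was 7111 to 7572 CPM in control tumor cells and 5101 to 5437 CPM in TICs, with negative values for all 9 tested (median -0.37) and none called. Fibroblast markers summed to 2123 to 2538 and 4992 to 8238 CPM. Of the 7 tested, 4 were called higher in TICs by exactTest and 3 by the quasi-likelihood test. Over all genes tested, exactTest called 1.36% higher in TICs. Pericyte markers summed to 445 to 521 and 868 to 1494 CPM (1 of 7 called higher, Rgs5), and endothelial markers to 116 to 132 and 150 to 565 CPM (none of 7 called). The fibroblast, pericyte and endothelial sums were each highest in TIC replicate 3, the sample with the lowest sum of the lipogenesis genes. Leukocyte markers summed to 60.1 to 101 and 204 to 237 CPM, with Lyz2 and Cd74 called higher by exactTest and neither by the quasi-likelihood test (adjusted p = 0.138 and 0.152). Ptprc, the gene of CD45, had counts only in control tumor cells replicate 1 and Cd3e and Adgre1 had none in any sample. Milk protein genes summed to 4036 to 5425 and 2897 to 5467 CPM and basal epithelial markers to 569 to 1200 and 590 to 702 CPM, and neither list had a call. Adipocytes are the other lipogenic cells of the mammary fat pad. Of 10 adipocyte genes 6 (Adipoq, Plin1, Plin4, Lep, Retn and Pck1) had no count in any sample, and the list summed to 29.3 to 76.3 and 28.9 to 60.0 CPM. Most of this sum was Pnpla2, at 28.6 to 64.2 CPM in control tumor cells and 26.3 to 60.0 CPM in TICs. Lipe, Cfd and Cidec made up the rest. Cfd had 48, 6 and 1 counts in control tumor cells and 0, 65 and 0 in TICs, and Cidec had 18 in TIC replicate 2 alone.

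When the samples were scaled to the 10 luminal markers in place of TMM, a choice made after seeing the data, the median of all genes moved to 0.47 and that of the members to 0.19. The gap between the members and all genes was -0.28 on both scales. This scaling shifts all genes nearly alike, so that the gap could not change and gives no information on luminal content. On the luminal scale 4 of 10 members were negative, the groups overlapped for every member and none was called. Elovl5 (0.40), Elovl6 (0.18), Scd2 (0.20) and Srebf1 (0.39) had positive values there, Fasn was at -0.36 and Scd1 at -0.17. These changes of sign follow from the shift of all genes and are not particular to the 4 members.

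The genes whose pattern over the 6 samples was most like that of Fasn were Bicdl2, Tmub2, Rpa1, Sfn and Rundc1. Their centred log2 CPM differed from that of Fasn by a root mean square of 0.119, 0.130, 0.131, 0.137 and 0.137. The median over all genes tested was 0.935. The 5 genes were picked for the smallest differences, so that values below this median follow from the choice. Sfn, the 14-3-3 sigma gene of epithelial cells, was at 239, 307 and 170 CPM in control tumor cells and at 221, 143 and 104 CPM in TICs. None of these 5 genes was called, and no other lipogenesis gene was considered for this list.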

How the data were processed

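RNA-seq libraries of 3 TIC and 3 control tumor cell samples were analysed. The authors used Trimmomatic 0.32 for trimming and STAR 2.4.0 for alignment to GRCm38, removed non-unique reads (SAMtools 1.1 is also listed in the submitters' processing notes) and counted reads with HTSeq. The deposited values are raw counts per Ensembl gene, without normalization. Symbols, coordinates and exon lengths came from GENCODE M21 (GRCm38), which named 40254 of 41388 genes, the rest holding 0.171% of counts. Promoters came from RefSeq (GRCm38.p6), taking the start nearest to that of GENCODE. The members and gene lists were chosen with earlier results of these data known.

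Genes above 1 CPM in at least 3 samples were kept (12192), since the study does not state its CPM limit. Counts were compared with exactTest after TMM, with common and tagwise dispersions, in edgeR 4.0.16 under R 4.3.3. SEs came from the negative binomial model with these dispersions, and permutation tests were exact and two-sided. The common dispersion was 0.678. No difference was adjusted over the members alone. Replicate numbers follow the order of the samples, and p-values measure the spread between pooled samples. Without molecular identifiers, limits from counts cover counting error only; 3 counts are 0.330 to 0.442 CPM.

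The text names all 10 members, each called gene of a pathway list or else its 2 genes with the smallest p-values, and the 5 genes most like Fasn. Marker genes, Cd24a, Thy1 and Mpc1 were named in addition, after their values were seen. Alternatives were the quasi-likelihood test, DESeq2 1.42.0, RLE factors, other filters, library size alone, trended dispersions, a threshold of 0.05, each sample left out, and luminal scaling. The scripts were tested on simulated counts.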

Additional observations from a re-analysis of the deposited data

How the results depend on the processing

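No lipogenesis gene was called with the quasi-likelihood test, DESeq2, RLE factors, library size alone, either other filter, trended dispersions, a threshold of 0.05 or luminal scaling. Leaving out 1 sample in turn gave 0 to 1 called members, the 1 being Fasn without TIC replicate 1 (-1.11, adjusted p = 0.0813). Fasn had a log2 fold change of -1.11 to -0.63 over these 6 settings. The values near 0 changed sign. Acaca was -0.052 with library size alone and -0.41 to 0.42 with 1 sample left out (negative without control tumor cells replicate 1, TIC replicate 1 or TIC replicate 2). Elovl5 ranged from -0.26 to 0.076 (positive without control tumor cells replicate 1 or TIC replicate 1), Srebf1 from -0.18 to 0.10 (positive without control tumor cells replicate 3) and Acly from -0.10 to 0.40 (negative without TIC replicate 2).

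Scaling to luminal markers, chosen after seeing the data, gave positive values for Elovl5 (0.40), Elovl6 (0.18), Scd2 (0.20), Srebf1 (0.39) and the member median (0.19). By construction it shifts all genes alike. It called 622 genes, among them 1 of precursor supply (Mpc2), 1 of elongation (Hacd1), 1 of oxidation (Acadl) and 0 of triglyceride synthesis.

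The number of genes called in all was 189, against 50 with the quasi-likelihood test, 306 with DESeq2, 112 without the filter, 116 at a threshold of 0.05 and 72 to 323 with 1 sample left out. The 1 call in triglyceride synthesis, Lpin1, became 0 with the quasi-likelihood test, without the filter and at a threshold of 0.05, and was 0 to 1 with 1 sample left out. Precursor supply had 1 call with trended dispersions (Pgd) and 0 to 2 with 1 sample left out (Slc25a1 and Pgd without TIC replicate 1), and transcription 0 to 1 (Mlxipl without TIC replicate 2). The cause of these changes was not tested. No paired analysis was possible because the replicate numbers only follow the order of the samples and tie no TIC sample to a control sample. The sources do not state outright whether both gates were sorted from the same mice. A supplementary legend of the paper gives 4 sortings per sample and 12 mice in total. It does not say whether this total covers 1 group or both, so that shared mice are possible. Every test treated the samples as independent.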
